A study of Homo sapiens with 8 samples.

Results

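The BCL2 family apoptosis regulators examined here are 10 genes, BCL2, BCL2L1, MCL1, BCL2A1, BAX, BAK1, BCL2L11, PMAIP1, BBC3 and BID, taken by symbol from the 23562 rows of a gene count table. Each symbol matched 1 row. RNA was sequenced in 8 libraries from the cell line OCI-AML5, which was established from acute myeloid leukemia. All cells had received a lentiCRISPRv2 lentivirus, a single vector that carries Cas9 and a guide RNA. The sgControl group held 4 libraries with non-specific guides (sgControl 1 to 4), and the sgCEBPD group held 4 libraries with guides against CEBPD, the gene of the transcription factor C/EBP delta (sgCEBPD 1 to 4). The titles number the libraries within each group, and the numbers were taken here as separate guides, which the labels do not state. The deposited library names also carry numbers that match between the groups. Whether these mark guides, replicates or pairs is not stated. If the libraries differ in guide, guides may add to the spread inside each group. The labels do not name separate transductions, so a p-value here sets groups against the spread of these 8 libraries, which may be technical.

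Proteins of the BCL2 family decide whether the outer mitochondrial membrane is opened during apoptosis. The prosurvival proteins BCL2, BCL-XL (gene BCL2L1), MCL1 and BFL-1 (gene BCL2A1) hold the effectors BAX and BAK (gene BAK1) in check, and BH3-only proteins such as BIM (gene BCL2L11), NOXA (PMAIP1), PUMA (BBC3) and BID bind the prosurvival proteins or activate the effectors. Venetoclax is a BH3 mimetic drug used in acute myeloid leukemia that occupies the groove of BCL2 but not that of MCL1 or BFL-1, and high MCL1, BCL-XL or BFL-1 and low BAX are known as routes to a weaker response. No drug response and no protein was measured in the data used here, so the values below describe transcripts only.

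Library totals lay between 10217751 and 11521209 counts. Levels are given as CPM, counts scaled to library size by TMM. CEBPD itself stood at 216, 204, 205 and 202 CPM in sgControl 1 to 4 and at 107, 209, 195 and 164 CPM in sgCEBPD 1 to 4, so sgCEBPD 1, 3 and 4 lay below all controls and sgCEBPD 2 did not. Since Cas9 can disrupt a gene and leave its transcript in place, these levels are no check of the guides. Among the libraries, sgCEBPD 3 differed most: 69.7% of the 13838 genes tested lay outside the range of the other 7 libraries there, against 17.6% to 19.9% for each other library. Its values are therefore shown separately, and each log2 fold change is given with and without it. Of 13 monocytic markers in the table, the summed level was 586 to 635 CPM in controls, 582 to 755 CPM in sgCEBPD 1, 2 and 4 and 1180 CPM in sgCEBPD 3. CD14, a defining marker of monocytes, was at 0 counts in 3 controls and at 41.0 CPM in sgCEBPD 3. Of the 8 monocytic markers tested, 7 lay above all other libraries there and 0 below (34.8% and 34.9% of all genes tested). LYZ lay within, at 80.9 CPM against 37.0 to 189 CPM elsewhere, and S100A12, not tested, had 0 counts there. CSF1R was the largest part of the sum, at 538 CPM against 387 to 503 CPM elsewhere. The summed level of 10 markers of primitive leukemia cells was 1064 to 1254 CPM in controls, 984 to 1149 CPM in sgCEBPD 1, 2 and 4 and 1376 CPM in sgCEBPD 3. That sum hides a split in sgCEBPD 3, where 3 of the 10 lay above all other libraries and 5 below. SOX4 stood there at 533 CPM against 101 to 189 CPM elsewhere, while KIT stood at 2.46 CPM against 18.1 to 51.9 CPM, ERG at 3.44 CPM against 22.0 to 61.0 CPM and CD34 at 7.86 CPM against 13.4 to 103.7 CPM. That list also holds CD33, which is not limited to primitive cells. CD33 was lower in the comparison without sgCEBPD 3, at 131.7 ± 9.15 CPM in controls (SD, n = 4). It stood at 103 ± 3.96 CPM in sgCEBPD 1, 2 and 4 (SD, n = 3). The log2 fold change was -0.35 (adjusted p = 0.0199 in edgeR's quasi-likelihood test). Summed erythroid markers and summed epithelial and fibroblast markers stayed under 2 CPM in every library. The 4 lymphoid markers in the table summed to 9.01 to 10.5 CPM in controls, 5.53 to 7.66 CPM in sgCEBPD 1, 2 and 4 and 68.1 CPM in sgCEBPD 3, where the T cell gene CD3D alone stood at 52.7 CPM. The B cell gene CD79A was lower without sgCEBPD 3, at 5.42 ± 0.372 CPM in controls (SD, n = 4) and 2.05 ± 0.618 CPM in sgCEBPD 1, 2 and 4 (SD, n = 3; log2 fold change -1.39, adjusted p = 0.0149 in edgeR). With all 8 libraries neither passed edgeR (log2 fold change -0.34 and adjusted p = 0.153 for CD33, -1.23 and 0.136 for CD79A). The part of these markers in the results below was not tested, and in bulk RNA a change in the share of a cell state and a change in RNA per cell cannot be told apart.

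Promoter sequence from RefSeq (GRCh38.p14) was read for 250 bases before and 50 bases after each annotated start, and 9 of the 10 genes, all but MCL1, matched in 14 windows. The letters TTGCNNAA, a C/EBP motif, were in none of the 14 windows on either strand, and in 10.5% of all 35116 windows. The letters TGATGNAA, which describe the composite element of C/EBP and ATF proteins, were in 1 of the 14 windows and in 3.62% of all windows. That window belongs to BCL2A1, the member that was almost silent in every library but sgCEBPD 3. The match lies 63 to 56 bases before the RefSeq start. The gene as annotated in GENCODE 29 starts farther upstream, at 79971446, and spans the match. The match is in capitals within the following 30 bases, chr15:79971241-79971270 on the minus strand.
BCL2A1 upstream site: atattataaagTGATGCAAacagaaattcc
The letters CACGTG, the E-box bound by MYC and related factors, were searched after the sequences had been read. They were in 4 of the 14 windows (1 of BAX, 1 of BBC3 and 2 of the 5 of BID) and in 7.26% of all windows. The BID windows overlap and hold the same E-box, so the 4 windows hold a site in 3 genes. BAX is shown because its 250 upstream bases hold 4 such E-boxes, and 5 of 35116 windows (0.0142%) hold at least as many. They start 138, 93, 45 and 14 bases before the RefSeq start. A retained-intron transcript of BAX in GENCODE 29 starts at 48954815 and spans the last 2 of them, and the first protein-coding transcript starts at 48954877, after all 4. The stretch is chr19:48954625-48954874 on the plus strand, with the E-boxes in capitals.
BAX upstream 250 bases: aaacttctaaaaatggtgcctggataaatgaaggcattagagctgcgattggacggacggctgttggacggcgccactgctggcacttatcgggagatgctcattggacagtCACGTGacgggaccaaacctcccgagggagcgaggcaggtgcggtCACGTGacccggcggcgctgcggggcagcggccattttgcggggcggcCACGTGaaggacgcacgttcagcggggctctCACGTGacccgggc
A match of letters is a description of the window and shows no binding.

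Across all 8 libraries no member of the family passed the test between sgCEBPD and sgControl. Of the 10 members, 9 passed the filter on low counts, and BCL2A1 did not. Over all 13838 genes tested, 0.0795% were called (0.00723% higher and 0.0723% lower in sgCEBPD; edgeR's quasi-likelihood test, Benjamini-Hochberg adjusted p under 0.05), and 0 of the 9 members were. At an unadjusted p under 0.05 there were 2 members, BAX and PMAIP1, where 11.4% of all genes tested met that level. Without sgCEBPD 3, 2.01% of 14047 genes were called (0.705% higher and 1.31% lower) and again 0 of 9 members, while MCL1, BAX and PMAIP1 had an unadjusted p under 0.05 (15.5% of all genes did). DESeq2 and limma-voom also called 0 of these 9 members in both comparisons. In fits without the filter, DESeq2 among them, the result of BCL2A1 was not kept. The median log2 fold change of the 9 members was 0.07 over 8 libraries and 0.06 without sgCEBPD 3, beside medians of 0.00029 and 0.0011 over all genes tested. Log2 fold changes were above 0 for 7 of the 9 members with 8 libraries (50% of all genes tested) and for 6 of 9 without sgCEBPD 3 (50.3%).

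**Figure D1:**
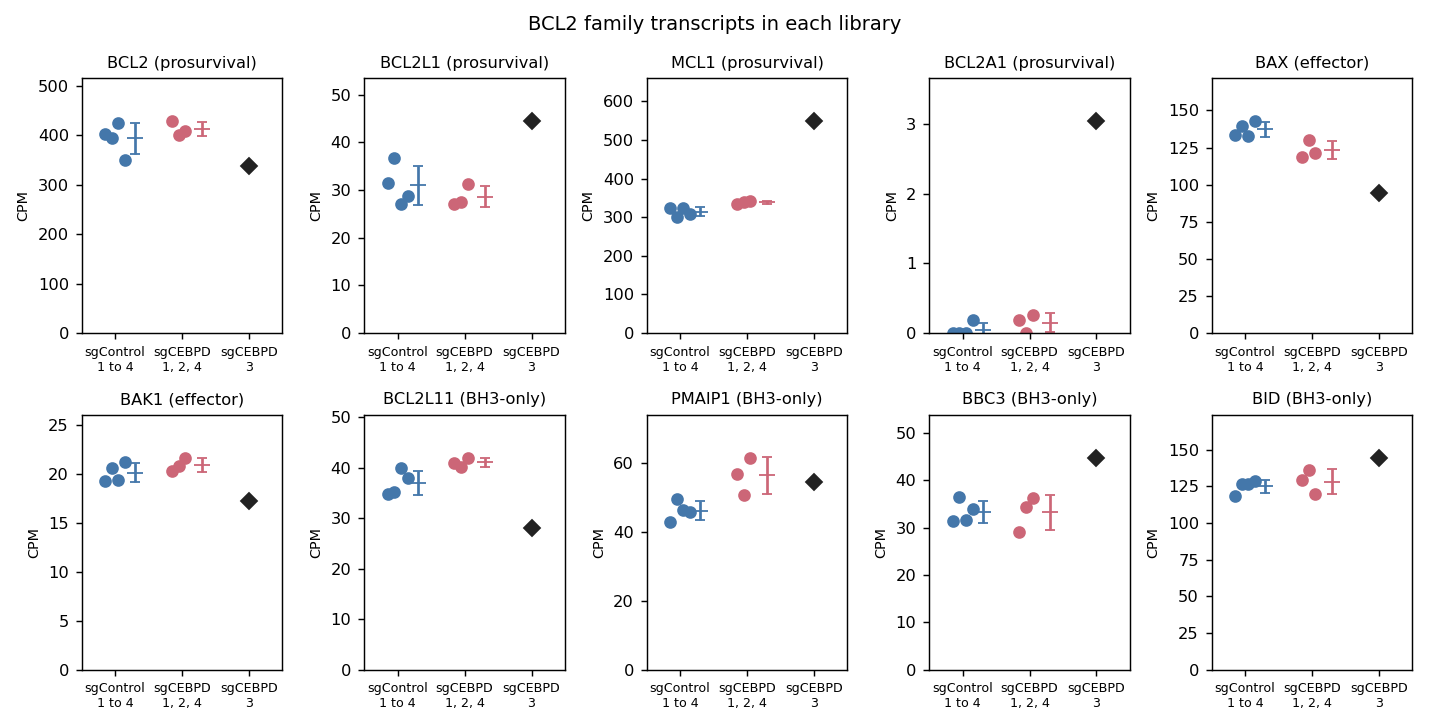
Level of each of the 10 genes in CPM (y axis, from 0) in the 4 sgControl libraries, in sgCEBPD 1, 2 and 4, and in sgCEBPD 3 (diamond). Points are libraries and the bars beside them are the mean and SD, which the axis ends at 0 for BCL2A1. In sgCEBPD 3, MCL1 stood at 549.8 CPM and BAX at 94.3 CPM, outside every other library.

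BCL2 is the target of venetoclax and is annotated on the minus strand of chromosome 18, at 63123346 to 63320128 in GRCh38 by GENCODE 29. Its level was 403, 396, 426 and 351 CPM in sgControl 1 to 4 and 430, 401, 339 and 408 CPM in sgCEBPD 1 to 4. The groups overlapped, and sgCEBPD 3 was the lowest of all libraries, close to sgControl 4. The group means were 394 ± 31.4 CPM and 394 ± 39.0 CPM (sgControl and sgCEBPD, SD, n = 4 each). Their log2 fold change of 0.0016 (95% interval -0.20 to 0.21, adjusted p = 0.995 in edgeR) has an interval that spans 0.868-fold to 1.15-fold. Without sgCEBPD 3 it was 0.07 (95% interval -0.07 to 0.20).

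MCL1, a short-lived prosurvival protein on which many myeloid cells depend, was the member with the highest CPM in sgCEBPD 3. Its place is the minus strand of chromosome 1, at 150574551 to 150579738. The controls had 325, 300.1, 324 and 309 CPM. The libraries sgCEBPD 1 to 4 had 334, 340.0, 549.8 and 342 CPM. All 4 sgCEBPD libraries lay above all controls, by a narrow margin in sgCEBPD 1, 2 and 4 and by a wide one in sgCEBPD 3. Over 8 libraries the log2 fold change reached 0.31 (SE 0.16), which missed the threshold (adjusted p = 0.484 in edgeR). Without sgCEBPD 3 it was 0.11 (SE 0.04, adjusted p = 0.261), with an interval of 1.01-fold to 1.15-fold, so the larger share of the difference came from 1 library. In sgCEBPD 3 the level was 1.75 times the control mean, and 20.7% of all tested genes were farther from their control mean in that library.

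BCL2L1 encodes BCL-XL. It stood at 31.4, 36.6, 27.2 and 28.7 CPM in sgControl 1 to 4 and at 27.1, 27.5, 44.5 and 31.2 CPM in sgCEBPD 1 to 4. The groups overlapped, and sgCEBPD 3 was the highest library, at 1.44 times the control mean. The log2 fold change was 0.07 (95% interval -0.33 to 0.47) with it and -0.11 (95% interval -0.35 to 0.12) without it, the other direction (adjusted p = 0.866 and 0.687 in edgeR). Exons of the antisense gene ABALON overlap 1424 bases of BCL2L1 exons, and without a stated strand setting reads of the pair cannot be separated.

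BCL2A1 encodes BFL-1 and is expressed mainly in mature myeloid and activated lymphoid cells. Its place is the minus strand of chromosome 15, at 79960889 to 79971446. It had 0, 0, 0 and 2 counts in sgControl 1 to 4 and 2, 0, 31 and 3 counts in sgCEBPD 1 to 4. The reads were thus found mainly in sgCEBPD 3, where the level was 3.05 CPM, still the lowest of the 10 genes there per kilobase. Against the 4 controls the ratio of count rates in that library was 62.7 (95% exact interval 16.0 to 541), and against sgCEBPD 1, 2 and 4 it was 19.0 (95% exact interval 7.33 to 62.6). These intervals cover counting error only and compare libraries, not conditions. The other 3 sgCEBPD libraries were near the controls.

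BCL2 was set beside the other prosurvival transcripts as a log2 ratio in each library, in which gene length cancels between libraries. Whether this transcript ratio follows the proteins or the response to venetoclax was not tested. BCL2 over MCL1 was 0.31, 0.40, 0.39 and 0.18 in sgControl 1 to 4 and 0.36, 0.24, -0.70 and 0.26 in sgCEBPD 1 to 4. The sgCEBPD 1, 2 and 4 libraries lay inside the control range, and sgCEBPD 3 lay far below it. Its ratio was 2.03 times lower than the control mean on the linear scale, from a higher MCL1 and a lower BCL2. BCL2 over BCL2L1 was 3.68, 3.43, 3.97 and 3.61 in the controls and 3.98, 3.86, 2.93 and 3.71 in sgCEBPD 1 to 4. Here too sgCEBPD 3 was the lowest library, 1.68 times lower than the control mean. BCL2A1 was at 0 counts in 4 libraries, so its ratio could not be formed there, and in sgCEBPD 3 BCL2 had 111 times the CPM of BCL2A1. No test was made on these ratios.

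**Figure D2:**
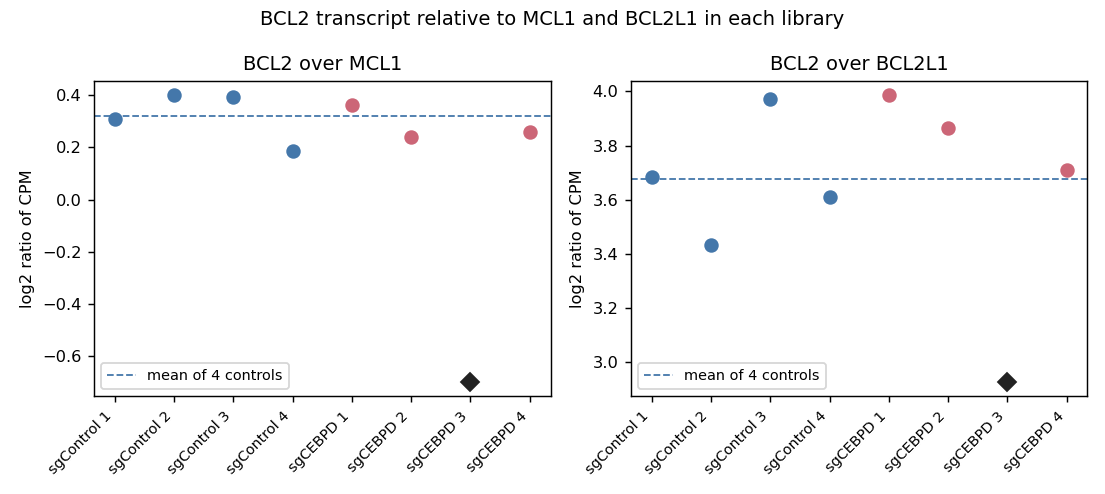
Log2 ratio of BCL2 CPM to MCL1 CPM (left) and to BCL2L1 CPM (right) in each of the 8 libraries, with the mean of the 4 controls as a dashed line and sgCEBPD 3 as a diamond. The axes do not start at 0. The sgCEBPD 3 values of -0.70 and 2.93 are the lowest of each panel.

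The effectors BAX and BAK1, either of which can permeabilise the mitochondrial membrane, had different patterns. BAX, on the plus strand of chromosome 19 at 48954815 to 48961798, stood at 133.7, 139, 132.9 and 143 CPM in sgControl 1 to 4. It stood at 118, 130.1, 94.3 and 122 CPM in sgCEBPD 1 to 4. All sgCEBPD libraries lay below all controls, and sgCEBPD 3 was the lowest. The group means were 137 ± 4.81 and 116 ± 15.3 CPM (SD, n = 4 each). The fitted log2 difference was -0.24 (SE 0.10, 95% interval -0.46 to -0.02), with an adjusted p of 0.421 in edgeR. Without sgCEBPD 3 that difference was -0.15 (SE 0.05, adjusted p = 0.171). MYC, whose protein binds E-boxes such as those shown above and is known to act on BAX, stood at 840 to 964 CPM in controls, 774 to 891 CPM in sgCEBPD 1, 2 and 4 and 471 CPM in sgCEBPD 3. MYC was picked after its values were seen, and whether it bears on BAX was not tested.

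BAK1 stood at 19.2, 20.6, 19.3 and 21.2 CPM in sgControl 1 to 4 and at 20.3, 20.8, 17.3 and 21.7 CPM in sgCEBPD 1 to 4. The groups overlapped, with sgCEBPD 3 below every other library and sgCEBPD 4 above every other library. Its log2 fold change was -0.0057 with all libraries (95% interval -0.22 to 0.21) and 0.06 without sgCEBPD 3 (95% interval -0.12 to 0.23), an interval that runs from 0.923-fold to 1.18-fold.

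Among the 9 tested members, PMAIP1, a BH3-only gene, had the lowest p in both comparisons. NOXA, its product, binds MCL1 and promotes its degradation, and the gene is on the plus strand of chromosome 18 at 59899948 to 59904306. The controls had 42.9, 49.5, 46.2 and 45.6 CPM and sgCEBPD 1 to 4 had 56.8, 50.7, 54.4 and 61.5 CPM. All 4 sgCEBPD libraries lay above all controls, and here sgCEBPD 3 was inside the range of the other sgCEBPD libraries. It was the only tested member for which sgCEBPD 3 was not an extreme library. The group means were 46.1 ± 2.71 and 55.9 ± 4.52 CPM (SD, n = 4 each). This log2 difference of 0.28 (SE 0.08, 95% interval 0.09 to 0.46) had an adjusted p of 0.298 in edgeR. Without sgCEBPD 3 it was 0.29 (SE 0.08), with an adjusted p of 0.0981. Over the alternative fits with 8 libraries the adjusted p lay between 0.0981 and 0.701, where the lower end is the same fit without sgCEBPD 3. Over those without sgCEBPD 3 it lay between 0.0540 and 0.254.

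BCL2L11 encodes BIM, which binds all prosurvival proteins and is released when venetoclax occupies BCL2. It stood at 34.7, 35.2, 39.9 and 38.0 CPM in sgControl 1 to 4 and at 40.9, 40.2, 28.1 and 42.0 CPM in sgCEBPD 1 to 4. In sgCEBPD 1, 2 and 4 it was above every control, and in sgCEBPD 3 it was below every control. Over all libraries the log2 difference was 0.03 (SE 0.13, adjusted p = 0.922 in edgeR). Without sgCEBPD 3 it was 0.15 (SE 0.07, adjusted p = 0.338). Exons of MIR4435-2HG on the other strand overlap 727 bases of its exons.

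BBC3, which encodes PUMA, stood at 31.3, 36.4, 31.7 and 33.9 CPM in the controls and at 29.1, 34.3, 44.8 and 36.3 CPM in sgCEBPD 1 to 4. The groups overlapped, and sgCEBPD 3 was the highest library at 1.34 times the control mean. Its log2 fold change was 0.12 (95% interval -0.18 to 0.41) with and -0.0024 (95% interval -0.20 to 0.20) without sgCEBPD 3. BID, which links caspase 8 to the mitochondria, stood at 118 to 128 CPM in controls, at 129, 136 and 119.5 CPM in sgCEBPD 1, 2 and 4 and at 144.5 CPM in sgCEBPD 3. Its groups overlapped as well, with a log2 fold change of 0.08 (95% interval -0.08 to 0.24) and of 0.04 (95% interval -0.09 to 0.16) without sgCEBPD 3.

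**Figure D3:**
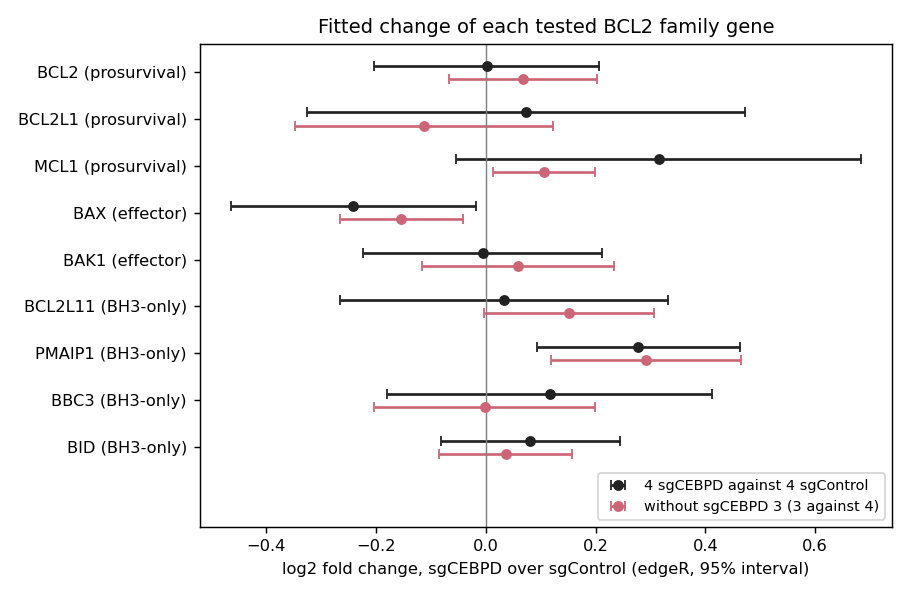
Log2 fold change of sgCEBPD over sgControl (x axis) for the 9 tested genes, with all 8 libraries (black) and without sgCEBPD 3 (red). Bars are 95% intervals from the edgeR fit, without adjustment over genes. The intervals of BAX and PMAIP1 leave out 0 in both comparisons, and that of MCL1 only without sgCEBPD 3, where it runs from 0.01 to 0.20.

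Groups did not overlap for 3 of the 9 tested members with 8 libraries (MCL1, BAX and PMAIP1), where 9.59% of all tested genes show no overlap (4.96% higher and 4.62% lower in sgCEBPD). Without sgCEBPD 3 they did not overlap for 4 of 9 (the same 3 genes and BCL2L11), where 14.4% of all tested genes show none (6.89% higher and 7.5% lower). In 3 of these 4 genes, MCL1, PMAIP1 and BCL2L11, the sgCEBPD libraries were the higher ones, and in BAX the lower ones.

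In sgCEBPD 3, 8 of the 9 tested members lay outside the range of the other 7 libraries, 4 above (MCL1, BCL2L1, BBC3 and BID) and 4 below (BCL2, BAX, BAK1 and BCL2L11). The background is high, since 34.8% of all tested genes lay above and 34.9% below in that library. The median absolute log2 ratio to the control mean was 0.39 for the 9 members and 0.38 for all tested genes. By role, 3 of the 4 prosurvival genes were above the other libraries (BCL2A1, MCL1 and BCL2L1) and BCL2 below, while both effectors were below. BCL2A1 was not among the tested genes that give those shares. The margin was small for BCL2, at 339 CPM against 351 CPM in the next library, and for BAK1, at 17.3 CPM against 19.2 CPM. Whether the roles differ was not tested. The BH3-only genes were split, with BBC3 and BID above, BCL2L11 below and PMAIP1 within.

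**Figure D4:**
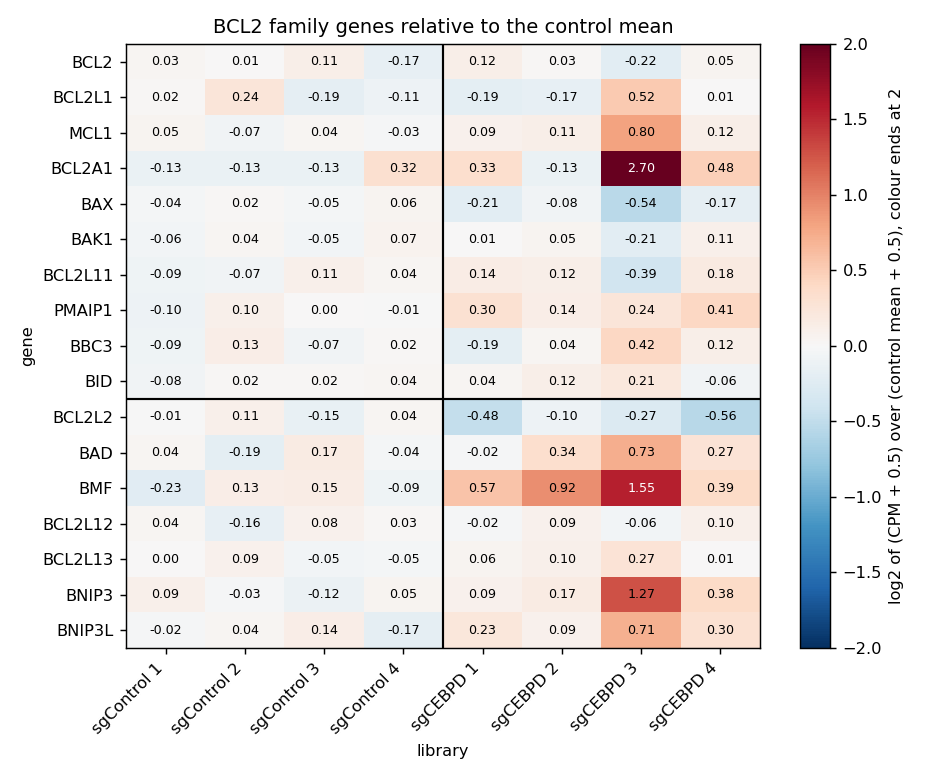
Log2 of (CPM + 0.5) over (control mean + 0.5) for the 10 genes (above the line) and 7 further BCL2 family genes reaching 1 CPM (below the line) in each library (columns). In the sgCEBPD 3 column, BCL2A1 reads 2.70, MCL1 0.80 and BAX -0.54.

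Per kilobase of merged exons, the order of transcript levels in controls was MCL1 (72.0 ± 2.81 CPM per kilobase, SD, n = 4), BAX (53.1 ± 1.86), BCL2 (33.5 ± 2.67), BID (28.1 ± 0.995), PMAIP1 (20.6 ± 1.21), BBC3 (10.5 ± 0.742), BCL2L1 (9.35 ± 1.25), BAK1 (9.09 ± 0.438), BCL2L11 (5.55 ± 0.366) and BCL2A1 (0.0421 ± 0.0843). BBC3, BCL2L1 and BAK1 followed each other within their spread, and the other neighbours did not overlap between control libraries. In sgCEBPD 3 the order was the same except that BID, at 32.5 CPM per kilobase, passed BCL2, at 28.8. MCL1 stood at 125.8 CPM per kilobase there. Taking the longest annotated transcript as the length placed BAX above MCL1 in controls.

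The genes lie on 8 chromosomes. BCL2 and PMAIP1 share chromosome 18, with 3.22 megabases between them, and BAX and BBC3 share chromosome 19, with 1.72 megabases between them. The neighbours differed in pattern: BCL2 overlapped between groups where PMAIP1 did not, and in sgCEBPD 3 BAX was the lowest library and BBC3 the highest.

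Of 13 other BCL2 family genes listed, 10 were in the table and 7 were tested, and 0 passed edgeR in either comparison, with 2 and 3 at an unadjusted p under 0.05 (11.4% and 15.5% of all genes tested). In sgCEBPD 3, 5 of the 7 lay above all other libraries and 0 below (34.8% and 34.9% of all genes tested). Those shares are the background of the same counts in the lists that follow. The median log2 fold change of the 7 genes was 0.35 over 8 libraries and 0.21 without sgCEBPD 3. BMF encodes a BH3-only protein that is held at the cytoskeleton in healthy cells. It stood at 52.6, 68.0, 68.9 and 58.1 CPM in sgControl 1 to 4 and at 92.2, 118, 183 and 81.3 CPM in sgCEBPD 1 to 4. All sgCEBPD libraries were above all controls, as in 4.96% of all genes tested with 8 libraries. With 8 libraries its log2 difference was 0.94 (SE 0.24, adjusted p = 0.265 in edgeR). Without sgCEBPD 3 it was 0.65 (SE 0.15, adjusted p = 0.0868), and further leaving out sgCEBPD 4 gave an adjusted p of 0.0438. DESeq2 called BMF in both comparisons (adjusted p = 0.0143 and 9.97e-05), and without sgCEBPD 3 blocking on the guide number called it too (adjusted p = 0.00535). The labels do not state that equal numbers are pairs. With 8 libraries BMF did not pass limma-voom (adjusted p = 0.316). Nor did it pass edgeR with the size factors of DESeq2 (adjusted p = 0.264), library totals (0.258) or no filter (0.357). BNIP3L, a mitophagy receptor, had log2 fold changes of 0.35 (adjusted p = 0.404 in edgeR) and 0.21 (adjusted p = 0.216). Its relative BNIP3 stood at 89.5 ± 5.83 CPM in controls (SD, n = 4), 104 ± 11.2 CPM in sgCEBPD 1, 2 and 4 (SD, n = 3) and 217 CPM in sgCEBPD 3.

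Downstream of the family, 17 genes of the mitochondrial death machinery were listed and 16 tested, and 0 passed edgeR in either comparison, with 2 at an unadjusted p under 0.05 in each. CASP6, an executioner caspase, had log2 fold changes of 0.48 with 8 libraries (adjusted p = 0.329 in edgeR) and 0.36 without sgCEBPD 3 (adjusted p = 0.195). XIAP, an inhibitor of caspases, had 0.25 (adjusted p = 0.425) and 0.16 (adjusted p = 0.343). In sgCEBPD 3, CYCS, which encodes the cytochrome c released through BAX and BAK pores, stood at 145.7 CPM against 253 to 285 CPM elsewhere. AIFM1, a mitochondrial flavoprotein, stood at 65.1 CPM against 96.4 to 114 CPM, and BIRC2, an inhibitor of apoptosis protein, at 69.1 CPM against 36.1 to 42.3 CPM.

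Of 12 genes of the death receptor pathway, 11 were tested and 0 passed edgeR in either comparison, with 0 and 5 at an unadjusted p under 0.05. Log2 fold changes were above 0 for 5 of the 11 and below 0 for 6 in both comparisons. CASP8, the protease that cleaves BID, had 0.17 with 8 libraries (adjusted p = 0.506 in edgeR) and 0.14 without sgCEBPD 3 (adjusted p = 0.520). The TRAIL receptor TNFRSF10A had 0.19 (adjusted p = 0.508) and 0.23 (adjusted p = 0.287). The other 4 genes with an unadjusted p under 0.05 without sgCEBPD 3 were chosen after their values were seen, and all had values below 0. They were the death receptor FAS (-0.89, adjusted p = 0.154), TNFSF10, which encodes TRAIL (-0.44, adjusted p = 0.0926), CFLAR, an inhibitor of CASP8 (-0.20, adjusted p = 0.216), and the kinase RIPK1 (-0.16, adjusted p = 0.299). With 8 libraries their log2 fold changes were -0.44, -0.24, -0.03 and -0.06 in the same order. In sgCEBPD 3, 9 of the 11 lay above all other libraries (34.8% of all genes tested), these 4 among them. CFLAR stood there at 115 CPM against 72.9 to 98.6 CPM, TRADD, an adaptor of TNF receptors, at 24.4 CPM against 16.2 to 20.5 CPM, and CASP10, a relative of CASP8, at 16.1 CPM against 9.40 to 13.2 CPM.

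Among 15 transcription factors known to act on members, all were tested and 0 passed edgeR in either comparison, with 2 and 3 at an unadjusted p under 0.05. NFKB1, a subunit of NF-kB, had log2 fold changes of -0.16 with 8 libraries (adjusted p = 0.432 in edgeR) and -0.11 without sgCEBPD 3 (adjusted p = 0.260). In sgCEBPD 3, DDIT3, which encodes the stress factor CHOP, stood at 34.4 CPM against 3.09 to 5.36 CPM elsewhere. FOXO1, an activator of BCL2L11, was at 8.55 CPM there against 19.1 to 21.5 CPM, and TP73, a factor that can induce BBC3, at 20.04 CPM against 47.6 to 55.2 CPM.

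MCL1 protein is turned over by ubiquitin ligases, so 9 symbols of that process were listed, of which 8 genes were tested and 0 passed edgeR in either comparison, with 0 and 1 at an unadjusted p under 0.05. USP9X, a deubiquitinase that stabilises MCL1, had log2 fold changes of 0.18 with 8 libraries (adjusted p = 0.494 in edgeR) and 0.08 without sgCEBPD 3 (adjusted p = 0.485), and it stood at 172 CPM in sgCEBPD 3 against 119 to 137 CPM elsewhere. MARCHF5, a mitochondrial ligase, had 0.21 (adjusted p = 0.523) and 0.08 (adjusted p = 0.652), and it stood at 63.7 CPM in sgCEBPD 3 against 42.2 to 47.6 CPM. USP13, another deubiquitinase of MCL1, stood at 22.5 CPM in that library against 29.2 to 37.3 CPM.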

How the data were processed

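The authors deposited raw counts per gene for the 8 libraries. The tools named per the submitters' processing notes were HISAT2, FastQC and DESeq2, and the build hg38. Counter, strand setting, annotation and versions are not given in the sources used here. Of 23562 rows, 116 repeated a symbol and were kept apart. The test was edgeR 4.0.16 in R 4.3.3 (filterByExpr, TMM, robust quasi-likelihood, group only), with p-values adjusted by Benjamini-Hochberg over all genes tested and a threshold of 0.05. SE is the absolute log2 fold change over the square root of F. DESeq2 1.42.0, limma-voom (limma 3.58.1), other scalings and filters, a stricter threshold, the guide number as a block and leaving out each library were alternatives. Functions were tested on simulated counts. Log2 ratios of sgCEBPD 3 and the scale of the heat map use a prior of 0.5 CPM. Gene positions and exon lengths came from GENCODE 29 and promoters from RefSeq. Protein sequences were not used here.

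Members, lists and tests were chosen with earlier results of these data known. All 10 members were named. From each other list, genes past the threshold were named, otherwise the 2 with the lowest unadjusted p, and up to 3 reaching 2 CPM and farthest outside the other 7 libraries in sgCEBPD 3. The result of 1 gene that this rule names is not reported here.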

Additional observations from a re-analysis of the deposited data

Results flagged for a closer look

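In each group of 4 libraries, 1 value was marked where its gap to the nearest other value exceeded, as a share of the group's range, Dixon's 95% critical value. Of 68 groups examined, 14 held such a value, where chance gives about 1 in 20 groups, or 3.4. The library was sgCEBPD 3 in 12 cases. The named genes of the other lists were in part chosen for their distance in that library, so the chance share does not hold for them. For the members it is no reference either, since 69.7% of all genes tested lay outside the other 7 libraries in sgCEBPD 3. The share of all genes that this rule marks was not computed.

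Among the members, sgCEBPD 3 was far from the other sgCEBPD libraries in MCL1 (549.8 CPM against 334 to 342), BCL2A1 (3.05 CPM against 0 to 0.259), BCL2L11 (28.1 CPM against 40.2 to 42.0) and the log2 ratio of BCL2 over MCL1 (-0.70 against 0.24 to 0.36). BCL2A1 was also marked in sgControl 4, at 0.184 CPM against 0 in the other controls, which rests on 2 counts. Among the other named genes sgCEBPD 3 was far out in BIRC2 (69.1 CPM), TRADD (24.4 CPM), NFKB1 (105 CPM), DDIT3 (34.4 CPM), TP73 (20.04 CPM), FOXO1 (8.55 CPM), USP9X (172 CPM) and MARCHF5 (63.7 CPM). MARCHF5 was also marked in sgControl 3, at 47.6 CPM against 42.2 to 42.4 CPM in the other controls.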

How the results depend on the processing

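Each member had 16 alternative settings with 8 libraries and 15 without sgCEBPD 3, 279 in all. None of the 9 tested members passed in any of them, and the lowest adjusted p was 0.0540 (PMAIP1). Not all of these settings are separate fits. The threshold of 0.01 reread the main fit, where no member could then pass. Leaving sgCEBPD 3 out of the 8 libraries repeated the main fit of the other comparison. BAX, MCL1 and PMAIP1 kept their direction in all their settings, and 20 settings reversed a small log2 fold change. With 8 libraries, BCL2 became -0.024 with library totals, -0.0026 with no filter and -0.00011 under the replicate block of guide numbers. Leaving out single libraries gave -0.049 to 0.068 for BCL2, -0.047 to 0.059 for BAK1, -0.022 to 0.15 for BCL2L11, -0.11 to 0.16 for BCL2L1 and -0.0024 to 0.21 for BBC3. Without sgCEBPD 3, BBC3 became 0.00088 with DESeq2 and 0.00047 with no filter, and leaving out further libraries gave -0.071 to 0.087 for BBC3 and -0.0056 to 0.083 for BID.

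The count of called genes over 8 libraries (11) was 299 with DESeq2, 20 with no filter, 1 with the replicate block, 1 at an adjusted p under 0.01, and 0 to 283 with single libraries left out (283 without sgCEBPD 3, 0 without sgCEBPD 2). Without sgCEBPD 3 (283) it was 602 with DESeq2, 40 at an adjusted p under 0.01 and 66 to 312 with a further library left out. The cause was not tested. Deviations of libraries with equal guide numbers correlated at -0.0921 to 0.0577, and the main fit did not pair libraries by number. The deviations were taken from group means that include sgCEBPD 3, and unequal numbers were not compared. The check therefore cannot decide on a pairing. By CPM of library totals, the log2 ratios of sgCEBPD 3 to controls became 0.72 for MCL1, -0.62 for BAX, -0.29 for BAK1 and 0.12 for BID. With the longest transcript as length, BAX ranked 1 and MCL1 2. With 1 added to each count, the log2 ratio of BCL2 over BCL2A1 was 6.75 in sgCEBPD 3 and 10.2 to 12.2 in the other libraries. BCL2A1 did not pass the filter on low counts, and its depth limits any statement outside sgCEBPD 3.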
